A study of Mus musculus with 6 samples.

Results

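The genes described here are Trp53, which encodes the transcription factor p53, and 9 of its core target genes, namely Mdm2, Cdkn1a, Ccng1, Btg2, Aen, Phlda3, Zmat3, Sesn1 and Trp53inp1. They were chosen by symbol for what is known of p53, by a rule that uses no measured value but with earlier results of these data known, and they make up 10 of the 16081 genes listed. All 10 had enough counts to be tested. The RNA came from Lewis cells, a mouse lung carcinoma line, of which 3 samples had received DMSO, the vehicle, and 3 had received SD70, an inhibitor of the histone demethylase KDM4C, for 24 hours. Both groups were of this 1 line, with no genetic change named in the labels, and the SD70 dose of this experiment and the Trp53 genotype of the line are not given in the sources used here. The labels do not say that the samples were separate cultures, so the p-values measure the spread between these samples, which may be technical.

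p53 is a transcription factor that is kept scarce in unstressed cells because MDM2, itself a product of a p53 target gene, marks it for degradation. DNA damage and other stresses free p53 from MDM2, and it then binds paired copies of a short sequence near its targets, whose products stop the cell cycle, repair DNA, limit growth signalling or lead to cell death. In lung cancers p53 is often lost or altered, and the RNA levels of Cdkn1a, Mdm2 and the other core targets are widely used as a reading of its activity. Most control of p53 acts on the protein, which these data do not measure.

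Total counts were between 15276744 and 17060424 per sample, and 11552 genes had enough counts to be tested with edgeR's quasi-likelihood test. A gene passed the test at a Benjamini-Hochberg adjusted p under 0.01, and it was called when the change was also at least 2-fold, a log2 fold change of 1. Counts are given normalized to a common library size and are compared between groups. FPKM values, which are also scaled to gene length, are used for levels between genes. Lung epithelial markers summed to between 4.67 and 5.78 FPKM with DMSO and between 3.73 and 4.99 with SD70, with Sftpc at no more than 1 count in any sample, Napsa at 65 to 85 counts, and Foxa2 at 52 to 62 counts with DMSO and 25 to 28 with SD70. Epithelial markers summed to between 148 and 155 FPKM with DMSO and between 94.5 and 106 with SD70. They were led by Krt8, which had 3925 to 4150 counts with DMSO and 2382 to 2875 with SD70, while Krt18 had 77 to 101 and 31 to 41, and Epcam, Cdh1 and Krt19 had at most 1. The mesenchymal sum, nearly all of it Vim, was between 2450 and 2740 FPKM with DMSO and between 1760 and 1920 with SD70, whereas Zeb1 of the same list went from 16.8 to 17.7 FPKM with DMSO up to 25.1 to 26.9 with SD70. Fibroblast markers summed to between 51.3 and 54.3 FPKM with DMSO and between 37.9 and 41.0 with SD70. Of these, Dcn was at 34.5 to 37.1 FPKM with DMSO and 29.9 to 32.5 with SD70. Pdgfra was at 16.2 to 17.1 FPKM with DMSO and 7.82 to 8.55 with SD70, and Col1a1 had at most 6 counts. The immune markers, of which Lyz2 was nearly all, summed to between 0.76 and 0.97 FPKM with DMSO and between 1.16 and 1.82 with SD70, with Ptprc at 0 in all 3 DMSO samples and at 2, 1 and 2 counts with SD70. Endothelial markers summed to between 0.87 and 1.07 FPKM with DMSO and between 0.95 and 1.14 with SD70. The part of these markers in the results below was not tested.

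The 10 genes did not move as a group. With SD70, Trp53, Mdm2, Aen and Btg2 rose and Cdkn1a, Sesn1 and Phlda3 fell, while Ccng1, Zmat3 and Trp53inp1 did not pass the test. Thus 7 of the 10 passed, against 49.9% of all genes tested. The 4 that rose are to be read beside 25.8% of all genes tested that rose, and the 3 that fell beside 24.2% that fell. Trp53 was the only one of the 10 called higher, where 3.29% of all genes were, and Cdkn1a the only one called lower, where 2.61% of all genes were. The SD70 and DMSO samples did not overlap in 8 of the 10, which compares with 64.4% of all genes tested. The median log2 fold change of the 10 genes was -0.04, and that of all genes tested was 0.00.

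**Figure D1:**
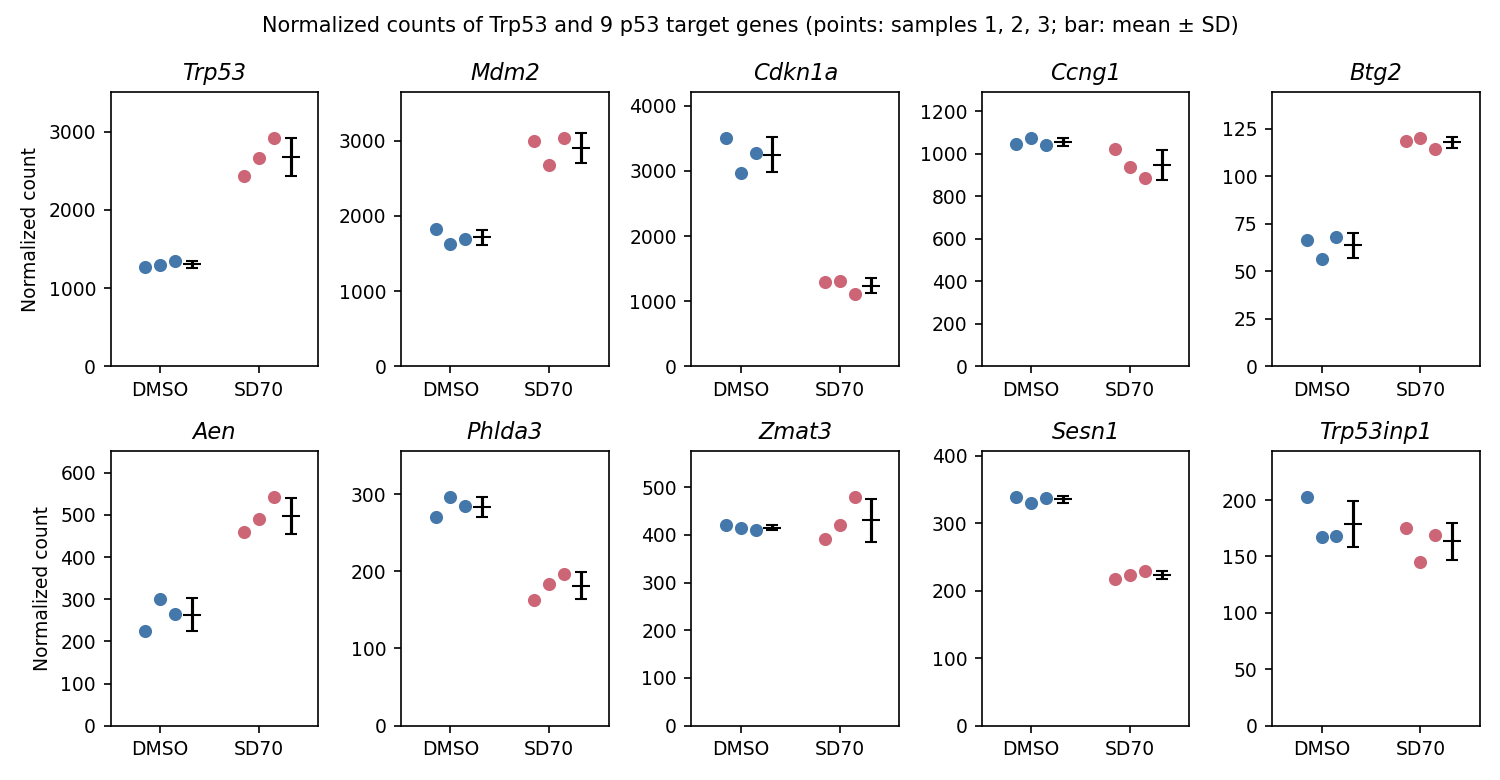
Normalized counts (vertical axes, each from 0) of the 10 genes in the 3 DMSO and 3 SD70 samples. Points are samples 1, 2 and 3 from left to right, and the bar beside them is the mean ± SD. All SD70 points lie above all DMSO points for Trp53, Mdm2, Btg2 and Aen, and below them for Cdkn1a, Ccng1, Phlda3 and Sesn1.

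**Figure D2:**
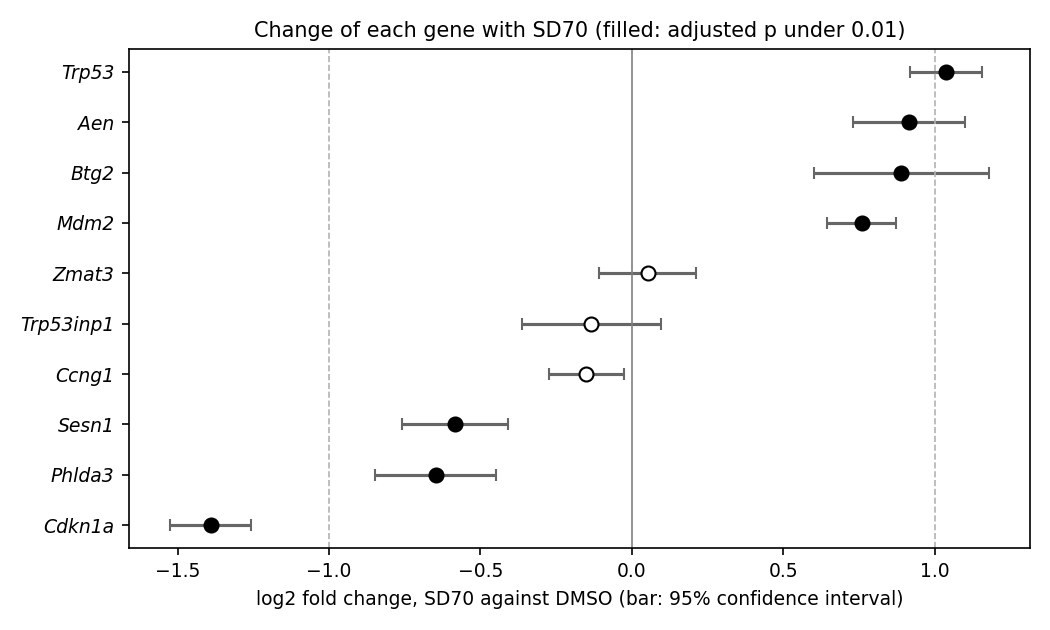
Log2 fold change of each gene, SD70 against DMSO (horizontal axis), with its 95% confidence interval. Filled points passed at an adjusted p under 0.01 and dashed lines mark a 2-fold change. The values run from -1.39 for Cdkn1a to 1.04 for Trp53, and the intervals of Trp53, Aen and Btg2 cross the upper dashed line.

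The promoters were searched for the letters that p53 reads in the 8 of the 10 genes that the RefSeq table held (GRCm38.p6, 11 windows of 300 bases from 250 before to 50 after a start). Zmat3 and Trp53inp1 were not searched. The p53 site of 20 bases, made of a pair of half-sites with no spacer and read alike on both strands, was sought with its 4 fixed C and G bases kept and at most 2 mismatches elsewhere. It was found with 1 mismatch in the window of Ccng1 and in the upstream window of Cdkn1a. The window at the other Cdkn1a start, 29093769, held neither a site nor a half-site. Across all 32851 promoter windows of the table, 0.067% held the site with at most 1 mismatch and 0.326% with at most 2. The site of Cdkn1a lay at chr17:29090928-29090947 on the plus strand, 51 to 32 bases before the upstream of its pair of starts. The site of Ccng1 lay at chr11:40755462-40755481 and is printed on the minus strand, from which the gene is read, 195 to 176 bases before the start. Both are shown because Cdkn1a had the largest fall of the 10 genes and Ccng1 did not pass the test, with the site in capitals and 20 bases on either side.
Cdkn1a (chr17:29090908-29090967, plus strand): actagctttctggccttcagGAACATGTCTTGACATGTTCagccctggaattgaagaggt
Ccng1 (chr11:40755442-40755501, minus strand): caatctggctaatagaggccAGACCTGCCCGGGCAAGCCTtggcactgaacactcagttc

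A single half-site of 10 bases with no mismatch was present in 7 of the 11 windows, which belong to 6 of the 8 genes, and in 8.36% of all windows. Both windows of Aen hold the same half-site, Cdkn1a had 2 and Ccng1 had 1. The other genes with one, Trp53, Mdm2, Aen and Sesn1, each held 1 half-site and no full site within 2 mismatches, and they are shown, with the half-site in capitals, because 3 of these genes rose and Sesn1 fell.
Trp53 (chr11:69580274-69580303, plus strand): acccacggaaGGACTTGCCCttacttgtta
Mdm2 (chr10:117710925-117710954, minus strand): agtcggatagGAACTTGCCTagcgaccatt
Aen (chr7:78895927-78895956, plus strand): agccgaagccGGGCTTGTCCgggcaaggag
Sesn1 (chr10:41887256-41887285, plus strand): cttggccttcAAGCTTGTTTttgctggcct
Neither Phlda3 nor Btg2 held a half-site in its window. The window of Btg2 did hold the 8 bases of the cAMP response element, TGACGTCA, which reads alike on both strands, binds factors of the CREB and ATF families and was present in 1.79% of all windows. It is printed because it was found in Btg2 and in no other of the 8 genes, with the element in capitals, 166 to 159 bases before the start.
Btg2 (chr1:134079294-134079341, minus strand): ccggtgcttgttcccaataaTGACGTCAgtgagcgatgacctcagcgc
A match describes letters in the window and not a bound site. Known p53 sites of several of these genes lie outside such windows, and the motifs and the number of mismatches were chosen after the sequences had been seen.

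Trp53 (NCBI Gene 22059) lies on chromosome 11 of GRCm38.p6, chr11:69580348-69591873, on the plus strand. It had 1270, 1293 and 1347 normalized counts in DMSO samples 1, 2 and 3, and 2438, 2664 and 2922 in SD70 samples 1, 2 and 3. The groups did not overlap, with SD70 higher, and the spread was wider with SD70. The mean rose from 1303 ± 39.9 to 2675 ± 242 (mean ± SD of 3 samples), which is 2.05-fold. The log2 fold change was 1.04 (standard error 0.0589, 95% confidence interval 0.92 to 1.16, edgeR with Benjamini-Hochberg adjustment, adjusted p = 1.35e-16), and 3.12% of all genes tested had a larger one. Without SD70 sample 3 it was 0.96 and without TMM factors it was 0.998, so that Trp53 still passed the test and was no longer called. In RNA from whole cultures, fewer cells of a type or state and less RNA per cell cannot be told apart, here and in every result that follows.

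Mdm2, the ubiquitin ligase that degrades p53 and is itself a p53 target, rose with SD70. The gene (NCBI Gene 17246) lies at chr10:117688875-117710758 on the minus strand. DMSO samples 1, 2 and 3 had 1823, 1632 and 1692 normalized counts, and SD70 samples 1, 2 and 3 had 3000, 2672 and 3038. The groups were apart by more than either one's range. The rise from 1715 ± 98.0 to 2903 ± 201 (mean ± SD of 3 samples) was 1.69-fold, with a log2 fold change of 0.76 (standard error 0.0564, 95% confidence interval 0.64 to 0.87, edgeR with Benjamini-Hochberg adjustment, adjusted p = 9.92e-14). A larger value was found in 6.28% of all genes tested. Of its 6 deposited counts, 4 were not whole numbers.

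Cdkn1a encodes p21, the inhibitor of cyclin-dependent kinases through which p53 halts cells before DNA synthesis, and it fell. The gene (NCBI Gene 12575) lies at chr17:29090979-29100722 on the plus strand. DMSO samples 1, 2 and 3 had 3507, 2971 and 3266 normalized counts, and SD70 samples 1, 2 and 3 had 1294, 1309 and 1110. Every SD70 sample was below every DMSO sample, and the highest of them was under the lowest DMSO sample by more than the whole DMSO range. The mean was 3248 ± 269 with DMSO and 1238 ± 111 with SD70 (mean ± SD of 3 samples), which is 2.62-fold lower. Its log2 fold change of -1.39 (standard error 0.0650, 95% confidence interval -1.52 to -1.26, edgeR with Benjamini-Hochberg adjustment, adjusted p = 1.03e-15) was among the lowest, with 0.814% of all genes tested below it. Thus p21 RNA fell while the RNA of p53 rose. GENCODE M21 places a transcript that awaits experimental support, AC167363.2, on the other strand over 1046 bases of Cdkn1a, 273 of them in exons. Whether the counting used strand is not given in the sources used here, so their reads cannot be told apart. Counts per gene do not separate the transcripts from the 2 starts of Cdkn1a, at 29090979 and 29093769.

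Ccng1, which encodes cyclin G1, a p53 target that acts back on MDM2, did not pass the test. The gene (NCBI Gene 12450) lies at chr11:40748552-40755309 on the minus strand. It had 1045, 1076 and 1042 normalized counts in DMSO samples 1, 2 and 3, and 1024, 938 and 885 in SD70 samples 1, 2 and 3. The SD70 samples all lay below the DMSO samples, by a narrow margin for SD70 sample 1. The means were 1054 ± 18.8 and 949 ± 70.3 (mean ± SD of 3 samples), and the log2 fold change was -0.15 (standard error 0.0607, 95% confidence interval -0.27 to -0.03, edgeR with Benjamini-Hochberg adjustment, adjusted p = 0.0315). It passed without SD70 sample 1, at -0.21 (adjusted p = 0.00547, edgeR).

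Btg2, a p53 target that slows proliferation and helps shorten the tails of messenger RNAs, was the least abundant of the 10 genes with DMSO, and it rose. The gene (NCBI Gene 12227) lies at chr1:134074865-134079155 on the minus strand. DMSO samples 1, 2 and 3 had 66.3, 56.3 and 68.1 normalized counts, and SD70 samples 1, 2 and 3 had 119, 120 and 114. The SD70 samples lay close together and well above the DMSO samples. The mean went from 63.6 ± 6.33 to 118 ± 2.99 (mean ± SD of 3 samples), 1.85-fold, and the log2 fold change was 0.89 (standard error 0.142, 95% confidence interval 0.60 to 1.18, edgeR with Benjamini-Hochberg adjustment, adjusted p = 1.98e-06). The wide interval goes with its low counts.

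Of the targets tied to cell death, Aen rose, Phlda3 fell and Zmat3 did not pass the test. Aen encodes a nuclease that p53 induces to promote apoptosis, and it lies at chr7:78895927-78911209 on the plus strand (NCBI Gene 68048). Its normalized counts were 224, 301 and 265 in DMSO samples 1, 2 and 3, and 459, 491 and 542 in SD70 samples 1, 2 and 3. Relative to their mean, its DMSO samples varied more than those of the other genes, and all were below the SD70 samples. From 263 ± 38.5 to 497 ± 42.2 (mean ± SD of 3 samples), the rise was 1.89-fold. Its log2 fold change was 0.92 (standard error 0.0908, 95% confidence interval 0.73 to 1.10, edgeR with Benjamini-Hochberg adjustment, adjusted p = 2.95e-10), and it was 1.01, and called, without DMSO sample 2.

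Phlda3 encodes a small protein with a pleckstrin homology domain that holds back the kinase AKT, and it lies at chr1:135766085-135769134 on the plus strand (NCBI Gene 27280). It had 270, 296 and 284 normalized counts in DMSO samples 1, 2 and 3, and 162, 184 and 197 in SD70 samples 1, 2 and 3. The groups did not overlap. The mean fell from 283 ± 13.2 to 181 ± 17.4 (mean ± SD of 3 samples), which is 1.57-fold lower, with a log2 fold change of -0.65 (standard error 0.0981, 95% confidence interval -0.85 to -0.45, edgeR with Benjamini-Hochberg adjustment, adjusted p = 7.46e-07). Zmat3, which encodes a zinc finger protein that binds RNA and is a p53 target in tumour suppression, lies at chr3:32334792-32365665 (NCBI Gene 22401). Its normalized counts were 420, 415 and 410 in DMSO samples 1, 2 and 3, and 391, 421 and 480 in SD70 samples 1, 2 and 3. The DMSO samples were nearly alike and lay inside the range of the SD70 samples. The means were 415 ± 5.25 and 431 ± 45.2 (mean ± SD of 3 samples), and the log2 fold change of 0.05 had a 95% confidence interval from -0.11 to 0.21 (edgeR with Benjamini-Hochberg adjustment, adjusted p = 0.596). RefSeq places the noncoding 4930429B21Rik over 177 bases of Zmat3.

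Sesn1 and Trp53inp1 are targets that act on metabolism and autophagy. Sesn1 encodes sestrin 1, which restrains the growth kinase mTORC1, and lies at chr10:41810574-41908436 on the plus strand (NCBI Gene 140742). It had 339, 330 and 338 normalized counts in DMSO samples 1, 2 and 3, and 218, 223 and 230 in SD70 samples 1, 2 and 3. Both groups were tight and far apart. GENCODE M21 places 9930024M15Rik over 2584 bases of Sesn1, 0 of them in exons. The mean fell from 336 ± 4.76 to 224 ± 5.89 (mean ± SD of 3 samples), with a log2 fold change of -0.58 (standard error 0.0861, 95% confidence interval -0.76 to -0.41, edgeR with Benjamini-Hochberg adjustment, adjusted p = 4.49e-07). Trp53inp1, whose product aids p53 and takes part in autophagy, lies at chr4:11156441-11174379 (NCBI Gene 60599). It had 203, 167 and 168 normalized counts in DMSO samples 1, 2 and 3, and 176, 145 and 169 in SD70 samples 1, 2 and 3. The groups overlapped. The means were 179 ± 20.4 and 163 ± 16.2 (mean ± SD of 3 samples), and the log2 fold change of -0.13 had a 95% confidence interval from -0.36 to 0.09 (edgeR with Benjamini-Hochberg adjustment, adjusted p = 0.312). It was -0.04 without DMSO sample 1, -0.05 without SD70 sample 2 and between -0.19 and -0.17 without any other single sample, and it passed in none of these fits.

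On each gene by itself, an exact two-sided permutation test of 3 against 3 samples cannot go below 0.1. It gave p = 0.1 for the 8 genes whose groups did not overlap, and for the other two it gave an exact p = 0.7 for Zmat3 and 0.6 for Trp53inp1.

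The order of the RNA levels, in FPKM, changed at its top. With DMSO, Cdkn1a was highest at 114 ± 9.43 FPKM (SD, n = 3), followed by Trp53 at 49.3 ± 1.17, Mdm2 at 35.1 ± 2.13, Ccng1 at 19.4 ± 0.414 and Phlda3 at 13.4 ± 0.623. Below them were Sesn1 at 7.86 ± 0.152 and Aen at 7.52 ± 1.22 FPKM, whose samples overlapped, then Zmat3 at 3.33 ± 0.0458, Trp53inp1 at 2.09 ± 0.234 and Btg2 at 1.33 ± 0.125. All other neighbours in that order were apart in all samples. With SD70, Trp53 was highest at 99.3 ± 9.38 FPKM (SD, n = 3) and Mdm2 second at 58.4 ± 4.08, followed by Cdkn1a at 42.5 ± 3.69. Then came Ccng1 at 17.4 ± 1.44, Aen at 13.7 ± 1.3, Phlda3 at 8.37 ± 0.829, Sesn1 at 5.03 ± 0.06, Zmat3 at 3.37 ± 0.355, Btg2 at 2.42 ± 0.0611 and Trp53inp1 at 1.86 ± 0.176 FPKM. With SD70, no neighbours in the order overlapped. Cdkn1a was above 94.1% of all genes tested in FPKM with DMSO and above 81.1% with SD70, whereas Trp53 was above 84.5% and 93.0%.

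**Figure D3:**
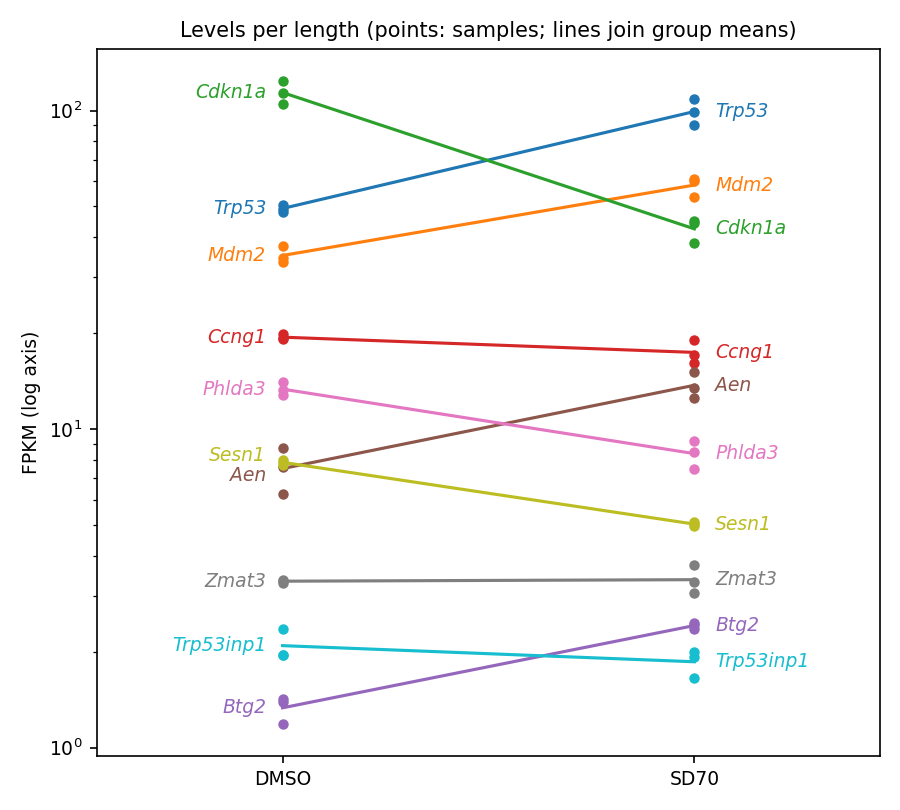
FPKM of the 10 genes (vertical log axis) with DMSO and with SD70. Points are the 3 samples of a group and lines join the group means. The line of Cdkn1a, from 114 to 42.5 FPKM, crosses those of Trp53 and Mdm2.

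Within each sample, the ratio of FPKM values gives the balance of these genes without a between-sample scale. Cdkn1a stood at 2.56, 2.13 and 2.25 times the level of Trp53 in DMSO samples 1, 2 and 3, and at 0.492, 0.455 and 0.351 times in SD70 samples 1, 2 and 3. Against Mdm2, Cdkn1a stood at 3.30, 3.13 and 3.31 times with DMSO and at 0.737, 0.836 and 0.626 times with SD70. Both ratios thus changed side in every SD70 sample. The ratio of Mdm2 to Trp53 was 0.777, 0.681 and 0.679 with DMSO and 0.667, 0.544 and 0.561 with SD70, with the SD70 samples all lower and one of them close to the DMSO samples.

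Of p53 regulators chosen by 19 symbols, of which Cop1 and its older symbol Rfwd2 are 1 gene, 15 were tested, of which 5 rose, 3 fell and 7 did not pass, with a median log2 fold change of 0.11 and none at the 2-fold change that a call needs. These counts are to be set beside the 25.8% of all genes tested that rose and the 24.2% that fell. Without SD70 sample 1, and with limma on FPKM, 3 rose. Mdm4, the partner of MDM2 that blocks p53 without degrading it, rose from 2467 ± 302 to 3174 ± 201 normalized counts (mean ± SD of 3 samples, log2 fold change 0.36, edgeR with Benjamini-Hochberg adjustment, adjusted p = 5.13e-04). In FPKM, Mdm2 was 1.54, 1.55 and 1.78 times Mdm4 with DMSO and 2.20, 2.11 and 2.11 times with SD70. Chek1, a kinase of the response to stalled DNA replication, rose by a log2 fold change of 0.68, and Ppm1d, the phosphatase that p53 induces to switch off its own signal, fell by 0.38 on the log2 scale. The most abundant regulators were the ribosomal proteins Rpl5 and Rpl11, which bind MDM2 when ribosome assembly fails. Rpl11 had a log2 fold change of -0.22 and passed, and Rpl5 had -0.09 and did not pass. Trp73, a p53 family member, had 1 count in all 6 samples together.

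Of other p53 targets chosen by 34 symbols, of which Tigar and its older symbol 9630033F20Rik are 1 gene, 28 were tested, of which 10 rose, 5 fell and 13 did not pass, with 7 called higher and 0 called lower. Over all genes tested, 25.8% rose, 24.2% fell, 3.29% were called higher and 2.61% were called lower. Their median log2 fold change was 0.06, against 0.00 for all genes tested, and the 7 called include the largest changes of any p53 target examined. Gadd45a, which joins arrest to DNA repair, rose from 857 ± 51.3 to 5034 ± 492 normalized counts (mean ± SD of 3 samples), with a log2 fold change of 2.55 (standard error 0.0644, edgeR with Benjamini-Hochberg adjustment, adjusted p = 2.44e-23). Plk3, a stress kinase, rose by 1.16 on the log2 scale. Of the 6 arrest targets tested, these 2 rose, 2 fell and 2 did not pass. The 2 that fell were E2f7 at -0.51 and Gtse1 at -0.55. Ckap2, the most abundant of the arrest targets that were not called, was at -0.11 and did not pass.

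Among 10 apoptosis targets tested, 3 rose, 2 fell and 5 did not pass, where 25.8% of all genes tested rose and 24.2% fell. The 3 that rose were also called, where 3.29% of all genes were called higher, and the number that fell was 1 when any sample other than SD70 sample 2 was left out. Eda2r, a death receptor of the TNF family, rose from 91.1 ± 17.2 to 606 ± 80.3 normalized counts (mean ± SD of 3 samples, log2 fold change 2.73, edgeR with Benjamini-Hochberg adjustment, adjusted p = 2.75e-16). Fas, another death receptor, rose from 29.4 ± 1.89 to 96.8 ± 3.21 (log2 fold change 1.72), and Bbc3, which encodes the BCL-2 antagonist PUMA, rose from 110 ± 8.79 to 246 ± 32.1 (log2 fold change 1.15). Apaf1, which builds the apoptosome, was at -0.41 and Ei24 at -0.17, and both passed as lower. Bax, the classical p53 target that opens mitochondria, had 870 ± 82.5 normalized counts with DMSO and 906 ± 74.1 with SD70 (mean ± SD of 3 samples, log2 fold change 0.06, edgeR with Benjamini-Hochberg adjustment, adjusted p = 0.488). Pmaip1, which encodes NOXA, had at most 1 count in any sample and was not tested.

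Among 7 targets of metabolism and secreted factors tested, 4 rose, none fell and 3 did not pass, with a median log2 fold change of 0.60, where 25.8% of all genes tested rose and 24.2% fell. Without DMSO sample 3 or SD70 sample 2, 1 fell. Gdf15, a secreted stress cytokine, rose from 150 ± 6.69 to 2116 ± 358 normalized counts and Sesn2 from 526 ± 3.26 to 3336 ± 395 (mean ± SD of 3 samples), with log2 fold changes of 3.81 and 2.66 (edgeR with Benjamini-Hochberg adjustment, adjusted p = 9.32e-08 and 1.75e-20). Tigar, which limits glycolysis, rose by 0.77 and Ddit4, an inhibitor of mTORC1, by 0.60 on the log2 scale. Gls2, a glutaminase, was at -0.56 and narrowly missed the test (edgeR with Benjamini-Hochberg adjustment, adjusted p = 0.0109). Of the 5 DNA repair targets, Rrm2b, the ribonucleotide reductase subunit that p53 induces, rose by 0.87 on the log2 scale, Ddb2 fell by 0.46, and Polk, Xpc and Ercc5 did not pass.

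Gadd45a, Sesn2, Gdf15, Ddit4 and Bbc3 are known to answer to ATF4 and its partner CHOP as well as to p53. Of 9 genes of the ATF4 stress response tested, all 9 rose and 8 were called, with a median log2 fold change of 2.00. Over all genes tested, 25.8% rose and 3.29% were called higher, with a median of 0.00. Chac1 was at 3.88, Atf3 at 3.74, Trib3 at 2.96 and Ddit3, which encodes CHOP, at 2.66. Atf4 itself was at 2.00, and Psat1 passed at 0.38 and was not called. The part of this response in the levels of the p53 targets was not tested.

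**Figure D4:**
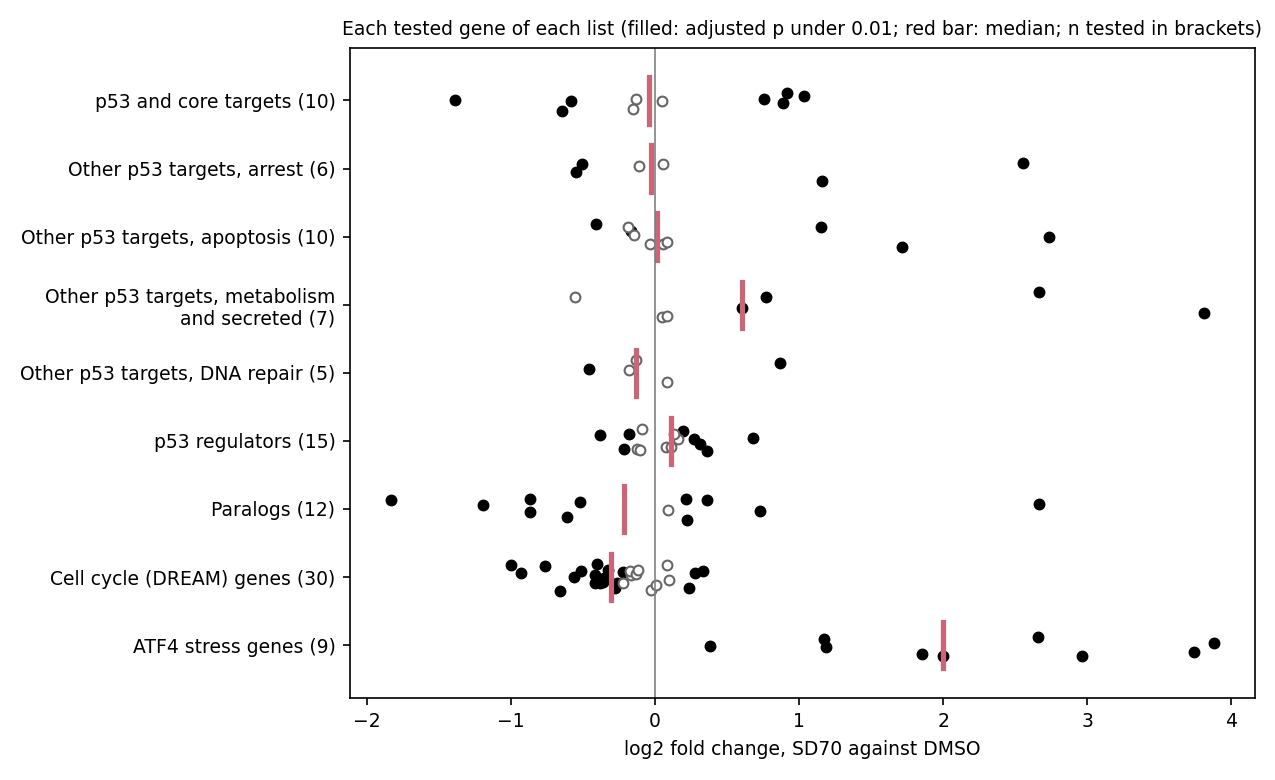
Log2 fold change, SD70 against DMSO (horizontal axis), of each tested gene in each list (rows, with the number tested in brackets). Filled points passed at an adjusted p under 0.01 and the red bar is the median of the list. Points of p53 targets lie on both sides of 0 with the far ones to the right, while the ATF4 stress genes all lie above 0, with a median of 2.00.

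Paralogs of the 10 genes also went in both directions, with 5 that rose, 6 that fell and 1 that did not pass among 12 tested, beside 25.8% of all genes tested that rose and 24.2% that fell. Cdkn1b, which encodes the related inhibitor p27, fell by 0.61 on the log2 scale. Ccng2, which encodes cyclin G2, fell from 2517 ± 169 to 1100 ± 120 normalized counts (mean ± SD of 3 samples, log2 fold change -1.19, edgeR with Benjamini-Hochberg adjustment, adjusted p = 3.94e-14). The 3 sestrins split, since Sesn1 and Sesn3 fell and Sesn2 rose. In FPKM, Sesn1 stood at 0.622, 0.591 and 0.613 times Sesn2 in DMSO samples 1, 2 and 3 and at 0.0701, 0.0641 and 0.0558 times in SD70 samples 1, 2 and 3, so that Sesn2 was the higher of the pair in both groups and by far with SD70. Sesn3 was low, at 12.6 ± 0.957 and 3.43 ± 1.47 normalized counts (mean ± SD of 3 samples, log2 fold change -1.83).

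Phlda1 rose by 0.73 on the log2 scale where Phlda3 fell, and Isg20, a nuclease related to Aen, had a log2 fold change of -0.87 where Aen rose. Trp53inp2 had a log2 fold change of -0.52. Of the genes related to Btg2, Btg1 and Btg3 were each at 0.22 and passed, Tob1 was at -0.87 and passed, and Tob2 was at 0.09 and did not pass.

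p53 is known to lower a set of cell cycle genes through p21, the product of Cdkn1a, and the DREAM repressor complex. The part of Cdkn1a, whose own RNA fell, in the levels of these genes was not tested. Of 30 tested, 18 fell, 3 rose and 9 did not pass, and the median log2 fold change was -0.30, where 24.2% of all genes tested fell and 25.8% rose. The largest change was that of Plk1, a mitotic kinase, which fell from 1822 ± 46.5 to 910 ± 81.7 normalized counts (mean ± SD of 3 samples, log2 fold change -1.0002, edgeR with Benjamini-Hochberg adjustment, adjusted p = 3.31e-16). It was the only one called, with a change right at the 2-fold limit, where 2.61% of all genes tested were called lower. Top2a and Mki67, the most abundant of the list, had log2 fold changes of -0.38 and -0.66 and passed. The 3 that rose were Mcm2 at 0.23, Mcm3 at 0.28 and Cdt1 at 0.33, which act in licensing DNA replication, as do Mcm5 at 0.08 and Cdc6 at -0.12, which did not pass.

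For Trp53 and Cdkn1a, the genes with the most similar pattern were sought among 9622 genes with a mean of at least 100 normalized counts, by the Euclidean distance between log2 normalized counts over the 6 samples after each gene's DMSO mean was taken off. The nearest to Trp53 were Reep6 (distance 0.0629), Iah1 (0.0968) and Gars (0.108). Nearest to Cdkn1a were Map3k1 (0.0901), Plau (0.118) and Chst1 (0.123). This likeness describes 6 samples in 2 groups, and the genes share the libraries in which they were counted.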

How the data were processed

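The authors sequenced oligo(dT)-selected RNA on the BGISEQ-500 platform and aligned clean reads to GRCm38.p6 with HISAT. The submitters' processing notes name StringTie 1.3.3b and another build, mm8. The deposited values carry no coordinates, and those printed are RefSeq's for GRCm38.p6. The authors deposited, per gene and sample, an expected count that need not be whole (8.84% to 9.28% of values were not) and an FPKM value, a unit read from the values. Counts were rounded, filtered by filterByExpr, normalized by TMM (factors 0.984 to 1.02) and fitted in edgeR 4.0.16 (R 4.3.3), with robust glmQLFit followed by glmQLFTest. Benjamini-Hochberg adjustment covered 11552 genes. No replicate pair agreed within sampling noise (chi-square per gene 2.12 to 4.97).

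The 10 genes and all lists were chosen with earlier results of these data known. Of each other list, the text names up to 4 called genes by absolute log2 fold change and the 2 most abundant of the rest, all tested paralogs, and the nearest 3 genes in pattern. Other genes it names were chosen after their values were seen. Alternatives were DESeq2's size factors, library totals without TMM, a minimum of 1 count in some sample or of 10 in every sample, the Wald test of DESeq2 1.42.0, a replicate block, limma 3.58.1 on log2(FPKM + 1) and log2(FPKM + 0.1), an adjusted p under 0.05, and each sample left out. Precision is limited by 3 samples per group. Protein sequences were not used here.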

Additional observations from a re-analysis of the deposited data

How the results depend on the processing

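Trp53, Mdm2, Aen, Btg2, Cdkn1a, Sesn1 and Phlda3 kept their direction and passed under all 14 alternatives, with log2 fold changes of 0.96 to 1.10, 0.71 to 0.82, 0.80 to 1.01, 0.55 to 0.93, -1.46 to -1.33, -0.63 to -0.56 and -0.72 to -0.57 in that order. The number of the 10 genes called higher was 1, and it was 0 with library totals without TMM, 0 with limma on log2(FPKM + 1), and between 0 (without SD70 sample 3) and 2 (without DMSO sample 2, which adds Aen) when 1 sample was left out. In each fit with 0, Trp53 still passed, at 0.96 to 1.00. Ccng1 passed at -0.19 with library totals without TMM (adjusted p = 0.00765, edgeR) and ranged from -0.21 to -0.11 when 1 sample was left out. Zmat3, which did not pass, had -0.037 without SD70 sample 3 and otherwise up to 0.12. The cause was not tested. Over all genes, 681 were called, against 283 with limma on log2(FPKM + 1), a scale that shrinks the change of low genes, and 542 to 767 under the other alternatives that kept the threshold of 0.01. Samples with the same number shared only that number (Pearson r -0.0686, 0.0477 and 0.114 across 11552 genes). With the replicate block, 692 genes were called and Trp53 had a log2 fold change of 1.03. The block changed no call among the 10 genes. Of the other p53 targets, the number that rose was 10 under every alternative and the number that fell was 4 to 7. Of the regulators, 3 to 7 rose, and the targets that fell numbered 1 to 2 for apoptosis, 0 to 1 for metabolism and secreted factors and 1 to 2 for DNA repair. Depth limits Btg2 most, as it had the fewest counts of the 10.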
